A study of Mus musculus with 24 samples.

Results

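The comparison described here asked which RNAs differed when wild-type Smarcc2 was put back into depolarized mouse cortical neurons that had been edited to lose it. It sets the 3 libraries of the knockout with wild-type Smarcc2 (KO+WT) against the 3 libraries of the knockout with an empty vector (KO+vector), which are 6 of the 24 samples of the series. The members were chosen by their titles alone. In both groups, neurons of embryonic day 16.5 cortex carried a CRISPR guide against Smarcc2 and were grown for 18 days in culture. The labels used here do not name the vector, its promoter or the share of edited cells. Both were silenced overnight with 1 µM tetrodotoxin, which blocks sodium channels, and 100 µM D-AP5, which blocks NMDA receptors, and then received 50 mM KCl for 30 min. The groups therefore share the knockout guide, the silencing and the KCl, and differ in the construct. Other cultures of the same age served as reference values: a non-targeting guide (NT; 2 at rest and 2 with KCl), the knockout with vector or WT at rest (3 and 2), and the knockout with the S586E form of Smarcc2 at rest (3) or the S586A form with KCl (2). The labels treat the cortex of each embryo as a biological replicate. They do not say whether cultures of different constructs with the same number came from the same embryo. RNA came from the whole culture, so fewer cells of a type and less RNA per cell cannot be told apart.

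Smarcc2 (BAF170) and its paralogue Smarcc1 (BAF155) form the scaffold on which BAF complexes assemble. These ATP-driven complexes, with Smarca4 or Smarca2 as the motor, slide or evict nucleosomes and so open promoters and enhancers. In neurons a subunit exchange yields a neuronal form, and depolarization by KCl triggers calcium entry that switches on early-response genes such as Fos and Arc within minutes.

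The 3 KO+vector libraries held 18731047, 16387842 and 14510199 estimated counts, and the 3 KO+WT libraries held 22250230, 21544609 and 22054378. Each KO+WT library was thus deeper than each KO+vector library, and levels are given as CPM, counts scaled to a common library total after TMM normalisation. Mitochondrial genes took 5.14 to 6.17% of the counts with vector and 4.96 to 7.56% with WT. The KO+WT libraries also stood apart from each other. The summed level of 22 early-response genes was 2090, 1379 and 744 CPM in KO+WT replicates 1, 2 and 3, against 1363, 1427 and 967 CPM in KO+vector. KO+WT replicates 1 and 3 were thus the highest and the lowest of the 6 on this sum. The depolarized NT cultures also differed from each other, at 1503 and 867 CPM. Resting cultures of this age held 414 to 521 CPM. For several lists that turn with 1 library, values are given below for each library or without it.

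Of 20940 genes tested, 2 were called at an adjusted p under 0.05 (0.00955% of genes; edgeR quasi-likelihood test), Smarcc2 higher and Pgk1 lower with WT. At an unadjusted p under 0.05 there were 835 genes (3.99%), 459 higher (2.19%) and 376 lower (1.8%). The libraries of the 2 groups did not overlap in 2107 genes (10.1%). Same-numbered cultures of the 2 groups deviated together, and with the replicate number as a block the count was 2 in the fit of all 20 libraries of this age and 17 in a fit of the 6 libraries alone. Both Smarcc2 and Pgk1 were among the calls under every one of the 14 alternatives run. The standard error of a log2 fold change had a median of 0.10 for genes of at least 10 CPM, 0.30 for genes from 1 to 10 CPM and 0.64 below 1 CPM. In simulated data for this comparison, the test recovered all genes changed 4-fold (100%) and 80.6% of those changed 2-fold. The changed genes were drawn from those with a mean of at least 2 CPM, so recovery at lower levels was not estimated. Counts were drawn independently, without deviations shared by the genes of a library. Smaller changes were not simulated.

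Smarcc2 (ENSMUSG00000025369.15; GRCm38, chr10:128459248-128490482, plus strand, protein-coding) was at 49.1, 47.5 and 59.96 CPM in the 3 KO+vector libraries and at 895, 737 and 1089 CPM in the 3 KO+WT libraries. No library of one group came near the other. Depolarized NT cultures lay between them at 274 and 283 CPM. The log2 fold change of KO+WT against KO+vector was 4.12 (SE 0.142, adjusted p 1.56e-12, edgeR), a 17.4-fold rise. The KO+WT mean was 3.26 times the NT mean, and the KO+vector mean was 0.188 times the NT mean. At gene level, RNA of the edited gene and RNA of the construct cannot be told apart. At rest the rise was 3.88, and the difference between the 2 rises was 0.25 (SE 0.190, unadjusted p 0.212, not called, edgeR interaction test).

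**Figure D1:**
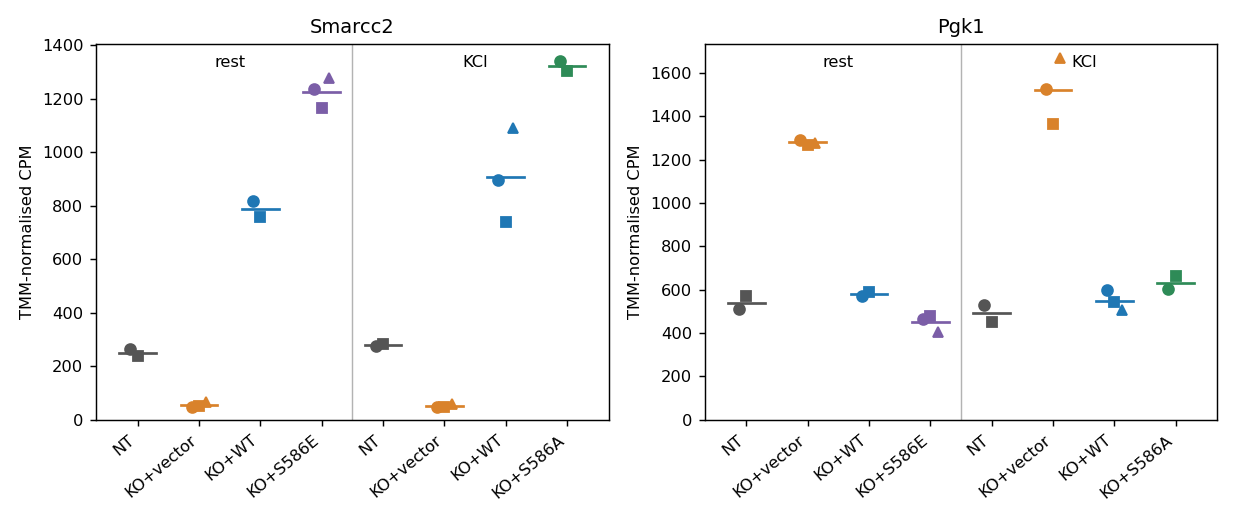
TMM-normalised CPM (linear axes from 0) of Smarcc2 and Pgk1 in each library of the 8 groups of this culture age, at rest on the left and with KCl on the right of each panel; symbols are replicates 1 (circle), 2 (square) and 3 (triangle), and bars are group means. Under KCl the KO+WT libraries sit at 737 to 1089 CPM for Smarcc2, above NT, and at 506 to 597 CPM for Pgk1, near NT.

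The Smarcc2 RNA of KO+WT cultures was divided among the annotated transcripts in other proportions than that of NT cultures. GENCODE annotates 3 long coding transcripts, and the stretches by which their coding sequences differ are shown because the levels of the 3 went apart. Smarcc2-202 has 29 exons and 1130 codons. Its exon 18 (chr10:128481682-128481774, 93 bases, 31 codons, coding) is skipped in Smarcc2-201 (28 exons, 1099 codons) and in Smarcc2-203 (28 exons, 1213 codons). Capitals mark the exon, and lower case the 30 bases of the neighbouring exons on each side.
Smarcc2-202: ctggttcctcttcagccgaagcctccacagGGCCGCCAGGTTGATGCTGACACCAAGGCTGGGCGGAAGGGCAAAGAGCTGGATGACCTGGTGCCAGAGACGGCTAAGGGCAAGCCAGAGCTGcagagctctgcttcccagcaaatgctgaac
Smarcc2-201 and Smarcc2-203: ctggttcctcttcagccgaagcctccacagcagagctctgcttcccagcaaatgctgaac
Smarcc2-203 also carries 342 coding bases more at the 3′ end of its exon 27 (chr10:128488018-128488359, 114 codons). Its sequence is shown over the first 30 of those bases, in capitals, beside the others at the same place.
Smarcc2-203: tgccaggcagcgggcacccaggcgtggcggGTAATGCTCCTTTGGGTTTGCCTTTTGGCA
Smarcc2-201 and Smarcc2-202: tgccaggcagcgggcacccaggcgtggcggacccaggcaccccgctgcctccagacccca

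Smarcc2-202, the transcript with exon 18, was the main form in depolarized NT cultures, at 32.9 and 28.7 TPM (a share of all transcripts, scaled for length), or 51.6% of the Smarcc2 TPM. With vector it was at 2.57, 2.93 and 5.64 TPM, and with WT at 3.33, 3.13 and 5.62 TPM. The KO+WT and KO+vector libraries overlapped, and the transcript was not called (log2 fold change 0.17, SE 0.317, adjusted p 1, edgeR on transcripts). It made up 1.49% of the Smarcc2 TPM with WT. Smarcc2-203, with the longer exon 27 and no exon 18, was at 1.64, 0.877 and 1.71 TPM with vector and at 133, 88.5 and 137 TPM with WT. Every KO+WT library was far above every KO+vector library and above the NT cultures, at 10.1 and 9.15 TPM. It rose by 6.45 on the log2 scale (SE 0.454, adjusted p 1.12e-05, edgeR). Smarcc2-201, which has neither stretch, rose by 3.82 (SE 0.237, adjusted p 4.05e-06), from 4.52, 4.20 and 3.43 TPM to 49.0, 46.5 and 70.5 TPM, against a mean of 13.7 TPM in NT. Smarcc2-201 made up 20.7% of the Smarcc2 TPM with WT and 22.9% in NT, and Smarcc2-203 made up 44.2% and 16.1%.

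A short non-coding transcript at the 5′ end of the gene, Smarcc2-206 (chr10:128459656-128468868), was at 7.76, 6.10 and 7.46 TPM with vector and at 91.5, 59.6 and 98.9 TPM with WT, a called rise of 3.60 (SE 0.429, adjusted p 0.00848, edgeR). The short coding Smarcc2-205 and the intron-retaining Smarcc2-204 were not called. With Pgk1-201, the 3 Smarcc2 transcripts were the 4 calls among 59803 transcripts tested (0.00669%). With DESeq2 there were 75. The KO+S586A cultures, which carry another addback, held the same order of forms: Smarcc2-203 was at 159 and 143 TPM and Smarcc2-202 at 2.93 and 4.25 TPM. Reads shared by transcripts were divided among them by the authors' estimate, whose uncertainty is not in the tables used. The coding sequence placed in the construct is not given in the sources used here.

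**Figure D2:**
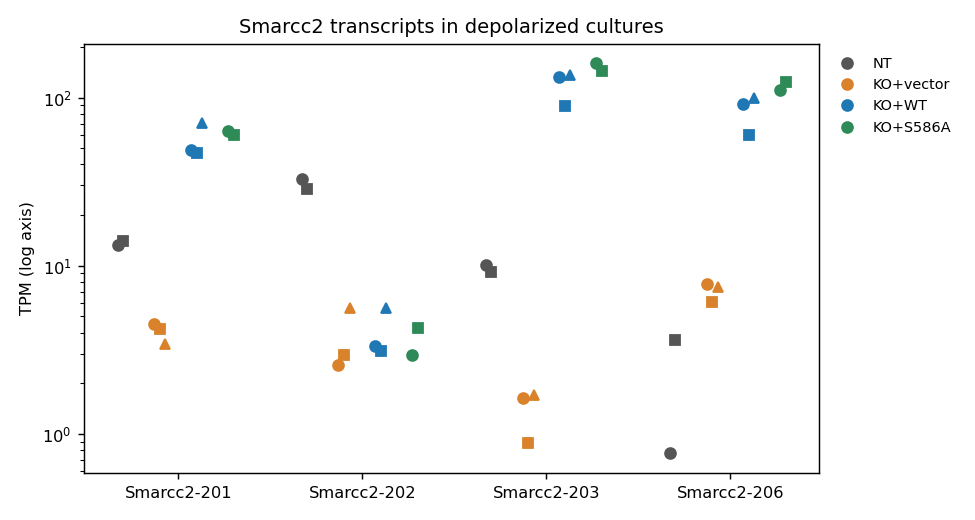
TPM (log axis) of 4 Smarcc2 transcripts in each depolarized library; colours are groups and symbols are replicates 1 (circle), 2 (square) and 3 (triangle). Smarcc2-202 is at 28.7 and 32.9 TPM in NT and at 2.57 to 5.64 TPM in both knockout groups compared, while Smarcc2-201, Smarcc2-203 and Smarcc2-206 are higher with WT than with vector in every library.

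Pgk1 (ENSMUSG00000062070.12; GRCm38, chrX:106187100-106203699, plus strand, protein-coding) encodes phosphoglycerate kinase, the enzyme of the first step of glycolysis that yields ATP. It was at 1525, 1367 and 1671 CPM with vector and at 597, 543 and 506 CPM with WT. All KO+WT libraries were below all KO+vector libraries and close to the NT cultures, at 528 and 452 CPM. Pgk1 fell by 1.47 on the log2 scale (SE 0.0922, adjusted p 3.30e-08, edgeR), to a level 2.77-fold lower. KO+WT against NT was 0.16 (SE 0.102, not called), and the KO+S586A libraries were at 601 and 665 CPM. The fall was carried by Pgk1-201, which held 99.8% of the gene's TPM with WT. At rest the difference was -1.14, and the change in it with KCl was -0.33 (SE 0.135, unadjusted p 0.0258, not called, edgeR interaction test).

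The other enzymes and transporters of glycolysis did not accompany Pgk1. Of 19 listed genes, Pgk1 was the one called. The other 18 had a median log2 fold change of 0.11, with 15 above 0, beside 51.3% above 0 over all genes tested and a median of 0.006. The lowest p of these 18 was that of Aldoa, an aldolase, at 1018, 1050 and 984 CPM with vector and 1344, 1163 and 962 CPM with WT (log2 fold change 0.18, SE 0.114, unadjusted p 0.122). Its KO+WT libraries lay on both sides of the KO+vector range. KO+WT replicate 1 was the highest of the 6 libraries in 15 of the 19 genes and KO+WT replicate 3 the lowest in 13. Without KO+WT replicate 1 the median of the 18 was -0.01. Gapdh, Gpi1 and Ldha, which catalyse other steps of the pathway, were not called (log2 fold changes 0.11, 0.24 and 0.10). Of 12 hypoxia-response genes 0 were called (0 also at an unadjusted p under 0.05), with a median of 0.07. Against the KO+vector mean their median was 0.34, -0.06 and -0.09 in KO+WT replicates 1, 2 and 3.

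Among 28 subunits of BAF-type complexes, Smarcc2 was the single one called. The other 27 had log2 fold changes from -0.21 to 0.42 and a median of -0.02, with 11 above 0. Smarcc1, the paralogue that shares the scaffold with Smarcc2, was at 91.4, 85.9 and 81.8 CPM with vector and at 89.7, 85.5 and 79.4 CPM with WT. The groups overlapped, and its log2 fold change was -0.03 (SE 0.0743, adjusted p 0.999). The motor subunits Smarca4 (-0.02, SE 0.0724) and Smarca2 (0.16, SE 0.0975), the core subunit Smarcb1 (-0.07, SE 0.0941) and the neuronal actin-like subunit Actl6b (0.007, SE 0.0706) were not called either.

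Including Smarcc2, 4 of the 28 subunits had an unadjusted p under 0.05, beside 3.99% of all genes. Dpf3, a PHD-finger subunit of the neuronal form, was at 4.71, 3.32 and 4.37 CPM with vector and at 5.40, 5.34 and 5.91 CPM with WT (0.42, unadjusted p 0.0355). Arid1a, the large DNA-binding subunit of canonical BAF, was at 223, 239 and 211 CPM with vector and at 197, 202 and 191 CPM with WT (-0.19, unadjusted p 0.0420). Bicral, a subunit of the non-canonical complex, had a log2 fold change of -0.13 (unadjusted p 0.0472). The libraries of the 2 groups did not overlap in these 3 genes, nor in 8 of the 28 subunits in all (10.1% over all genes tested), and none of the 3 passed adjustment (0.999).

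Early-response genes were the readout of depolarization. Of 22 listed, 0 were called and 0 had an unadjusted p under 0.05 (edgeR). DESeq2 also called 0, and the fit with no low-count filter called Npas4 (adjusted p 0.00218). The groups overlapped in every one of the 22. The median log2 fold change was 0.11, with 14 of 22 above 0. The AP-1 subunit Fos was at 101, 111 and 51.2 CPM with vector and at 197, 106 and 32.7 CPM with WT (0.35, SE 0.431, unadjusted p 0.431). KO+WT replicate 1 was thus the highest and KO+WT replicate 3 the lowest of the 6. The same held for the neuron-specific transcription factor Npas4, at 42.1, 48.2 and 25.6 CPM with vector and 108, 46.8 and 16.8 CPM with WT. It held also for Arc, which acts in AMPA receptor endocytosis, at 172, 193 and 129 CPM and 328, 180 and 87.3 CPM. Their log2 fold changes were 0.56 (SE 0.475) and 0.27 (SE 0.323).

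Over the whole list, KO+WT replicate 1 was the highest of the 6 libraries in 16 of the 22 genes and replicate 3 the lowest in 15. Against the KO+vector mean, the median of the list was 0.67, 0.07 and -0.74 in KO+WT replicates 1, 2 and 3, on the log2 scale of CPM plus 0.5. Against the vector library of the same number it was 0.56 (21 of 22 genes above 0), -0.07 (5 of 22) and -0.41 (1 of 22). The median of the fitted log2 fold changes was -0.26 without KO+WT replicate 1 and 0.44 without replicate 3, so its direction turned with 1 library. Without KO+vector replicate 3 it was -0.003.

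**Figure D3:**
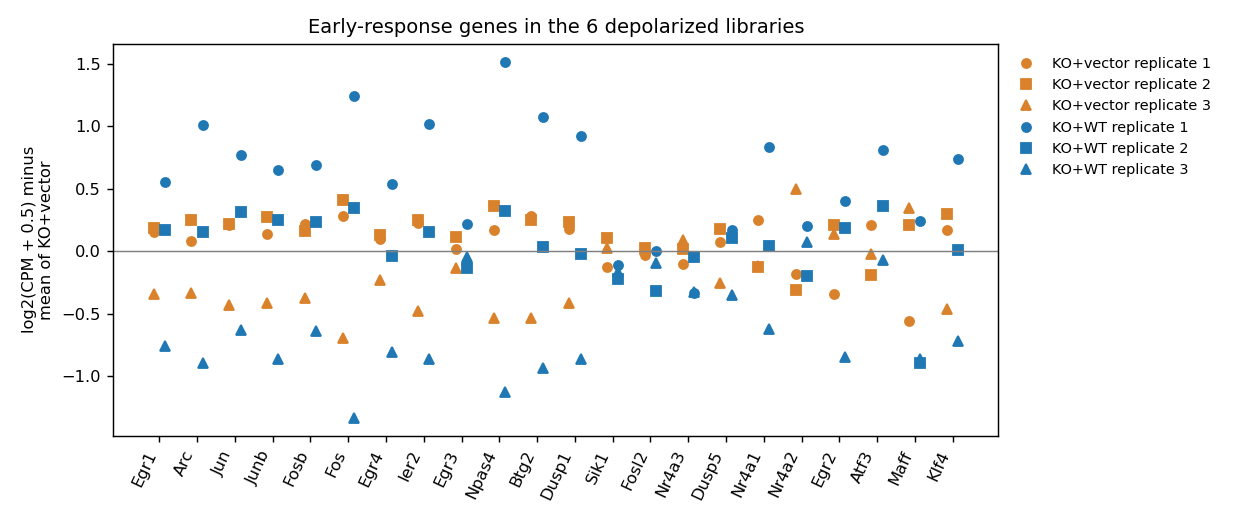
log2(CPM + 0.5) of 22 early-response genes in the 6 depolarized libraries, minus the mean of the 3 KO+vector libraries for that gene; colours are groups and symbols are replicates, with genes ordered by their KO+vector mean. KO+WT replicate 1 (blue circles) is the highest library in 16 genes and KO+WT replicate 3 (blue triangles) the lowest in 15, on either side of the KO+vector libraries.

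Late-response genes, which follow the first wave, gave 0 calls of 10, with 3 above 0 and a median of -0.16. Against the KO+vector mean the list median was -0.17, 0.04 and -0.01 in KO+WT replicates 1, 2 and 3. Bdnf, a neurotrophin, was at 8.09, 10.97 and 16.6 CPM with vector and at 7.87, 12.8 and 19.2 CPM with WT (0.17, SE 0.297). Same-numbered libraries lay close to each other there, and the groups overlapped. Nrn1, a surface protein linked to neurite growth, was at 29.4, 27.6 and 29.1 CPM with vector and at 36.5, 36.8 and 34.7 CPM with WT. Its groups did not overlap (0.33, SE 0.149, unadjusted p 0.0419, adjusted p 0.999).

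Of 25 listed synaptic genes, 0 were called, with a median log2 fold change of 0.02, and 4 had an unadjusted p under 0.05 (3.99% over all genes). The groups did not overlap in 7 of the 25 (10.1% over all genes). Against the KO+vector mean the list median was -0.04, 0.02 and 0.08 in KO+WT replicates 1, 2 and 3. The vesicle-fusion protein gene Stx1a was at 94.2, 94.9 and 97.9 CPM with vector and at 115, 105 and 113 CPM with WT (0.22, SE 0.0797, unadjusted p 0.0145). Its partner Snap25 was at 668, 628 and 588 CPM and at 716, 712 and 722 CPM (0.19, unadjusted p 0.0372). Grin1, the obligate NMDA receptor subunit, was at 493, 524 and 539 CPM with vector and at 587, 567 and 592 CPM with WT (0.17, unadjusted p 0.0160). Grin2b, an NMDA receptor subunit prominent in young neurons, lay the other way (-0.20, unadjusted p 0.0462). The 2 groups did not overlap in these 4 genes, and the adjusted p was 0.999 for each. In depolarized NT cultures Grin1 was at 692 and 656 CPM and Snap25 at 765 and 849 CPM, above both knockout groups.

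Genes below the adjusted threshold but lowest in unadjusted p, read among non-overlapping genes of at least 1 CPM, began with Zc3h11a (ENSMUSG00000116275.1), an RNA-binding zinc-finger gene. It was at 10.0, 14.4 and 10.2 CPM with vector and at 29.9, 18.3 and 31.3 CPM with WT (1.20, SE 0.198, adjusted p 0.0645, edgeR). A second entry with the symbol covers nearly the same stretch (ENSMUSG00000102976.6). It was at 38.7, 32.6 and 43.3 CPM with vector and at 21.4, 30.9 and 26.3 CPM with WT. The sum of both was 48.7, 47.0 and 53.6 CPM against 51.4, 49.1 and 57.5 CPM, with overlapping groups. The 2 overlapping entries lay in opposite directions while their sum overlapped between groups, so the value of either is uncertain.

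Emc10, a subunit of the complex that inserts membrane proteins in the endoplasmic reticulum, was at 48.0, 62.6 and 51.5 CPM with vector and at 83.4, 79.1 and 75.2 CPM with WT. Its groups did not overlap, and NT cultures were at 75.9 and 88.4 CPM, above every KO+vector library (0.55, SE 0.106, adjusted p 0.223). Malrd1, a gene linked to bile acid control, was at 1.64, 2.08 and 2.74 CPM with vector and at 0.432, 0.319 and 0.0895 CPM with WT (-2.90, SE 0.549, adjusted p 0.223). The NT cultures were at 0.0474 and 0.107 CPM, overlapping the KO+WT values. With DESeq2, 6 genes were called, among them Zc3h11a (adjusted p 1.12e-05), Emc10 (0.00717) and Malrd1 (0.0103). The sixth was Gm13304, a predicted gene at 3.17, 1.72 and 1.37 CPM with vector and at about 0 in each KO+WT library. Another predicted gene nearby, Gm21541, showed the reverse, at 0 with vector and at 4.32, 2.74 and 2.15 CPM with WT, and the sums of the 2 overlapped between groups.

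Of the other genes of lowest p, those higher with WT included Arhgef26, a guanine nucleotide exchange factor (0.37, SE 0.0893), and Slco2a1, a prostaglandin transporter (0.82, SE 0.204). The ribosomal protein genes Rpl5 (0.59, SE 0.141) and Rpl23a (0.34, SE 0.0871) were also there. Those lower with WT were Kifc3, a minus-end kinesin (-0.57, SE 0.135), Adam19, a membrane metalloprotease (-0.44, SE 0.110), Mn1, a transcriptional regulator (-0.40, SE 0.106), and Synj2, an inositol phosphatase (-0.40, SE 0.106). Kcnf1, a modulatory potassium channel subunit (-0.32, SE 0.0874), and the synaptotagmin Syt10 (-0.51, SE 0.141) followed. These 10 genes had an adjusted p of 0.999 in the main fit. The edgeR fit with no low-count filter called Rpl5 (adjusted p 0.0342), Kifc3 (0.00032), Mn1 (0.00397), Synj2 (0.0389) and Syt10 (0.0110). In each of the 10 genes the sign was opposite to that of KO+vector against NT at rest, which uses none of the 6 libraries. In the fit of the 6 libraries with the replicate block, Emc10, Kifc3 and Synj2 were among the 17 genes called. The others besides Smarcc2 and Pgk1 were Cabp7, Chrna1, Dkk3, Dlk1, Sorcs1, Nhsl2, mt-Co2, mt-Co3 and the predicted genes Gm13304, Gm21541, Gm23444 and Gm23472, named here after their values were seen. Gm23444 and Gm23472 had identical levels in every library, so their calls are not separate observations.

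The wider set of genes that differ without Smarcc2 was then read in the 6 libraries. At rest, 1236 genes (5.90%) were called between KO+vector and NT, and 1235 remain without Smarcc2. Of the 789 lower in KO+vector at rest, 694 (88.0%) had a log2 fold change above 0 in depolarized KO+WT against KO+vector, with a median of 0.15. Of the 446 higher at rest, 385 (86.3%) were below 0 (48.6% of all genes tested were), with a median of -0.14. Together 1079 of 1235 (87.4%) had the opposite sign, beside 60.8% of all genes tested and 59.2% of genes not called at rest. At an unadjusted p under 0.05 there were 108 of the 789 and 63 of the 446, all of them with the opposite sign, and Pgk1 was the 1 call. Over all genes tested but Smarcc2, 834 had such a p, and 663 of these had the opposite sign.

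The sizes were smaller than the differences at rest. The genes were chosen by that resting comparison, which by itself raises its medians. The gap in size is therefore no measure of how far WT restored these genes. The medians of KO+vector against NT at rest were -0.67 and 0.64 for the 789 and the 446 genes. For the same genes the medians of KO+vector against NT under KCl were -0.31 and 0.25, and those of KO+WT against NT under KCl were -0.18 and 0.12, comparisons that share libraries with each other. The groups compared here did not overlap in 143 (18.1%) and 100 (22.4%) of these genes, beside 10.1% of all genes. The resting and the depolarized comparison have no library in common. Deviations of same-numbered KO+vector cultures of the 2 states correlated across genes (r 0.166 to 0.367). Other-numbered KO+vector pairs ran from -0.337 to 0.237, so the 2 ranges overlapped. Same-numbered KO+WT cultures of the 2 states gave -0.0801 and -0.154. With 2 resting KO+WT libraries the deviations are mirror images, so the other-numbered values for these replicates were 0.0801 and 0.154. The part of such deviations in the shared direction was not tested.

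The opposite sign was not equally frequent in the 3 KO+WT libraries. Of the 789 genes, 92.1% lay above the KO+vector mean in KO+WT replicate 1, 75.7% in replicate 2 and 57.5% in replicate 3. For the 446 genes the shares below the KO+vector mean were 91.3%, 71.7% and 69.3%. These shares by library were not computed over all genes. Without KO+WT replicate 1 the share with the opposite sign over both sets was 73.0%, beside 55.2% of all genes. Without replicate 3 it was 89.7%, beside 63.2% of all genes.

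**Figure D4:**
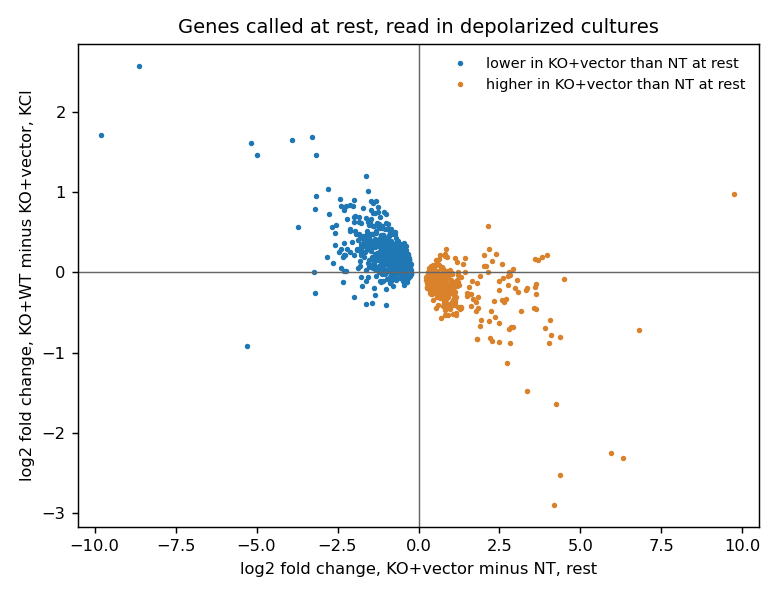
Each point is one of 1234 genes called between resting KO+vector and NT (Smarcc2 and Pgk1 left out); the x axis is that log2 fold change and the y axis the log2 fold change of depolarized KO+WT against KO+vector. Points lie mostly above 0 where the gene was lower at rest (blue) and below 0 where it was higher (orange). The spread on the y axis is smaller than on the x axis, the comparison by which the genes were chosen.

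The largest resting differences were read among genes with a mean of at least 1 CPM in either resting group, no overlap and no predicted or clone symbol, 6 in each direction. Those lower in KO+vector were Sox10, a transcription factor of the oligodendrocyte lineage, Pdgfra, the receptor of its precursors, Gpr17, Bcas1 and Cldn11, and the proliferation marker Mki67. None of them was called under KCl in the main fit. The edgeR fit with no low-count filter called Pdgfra (adjusted p 9.09e-05). Pdgfra was at 0.870, 0.534 and 0.782 CPM with vector and at 3.16, 3.15 and 0.492 CPM with WT (1.62, SE 0.758, unadjusted p 0.0460). KO+WT replicates 1 and 2 were above all KO+vector libraries and replicate 3 below them. The NT cultures were at 1.42 and 13.5 CPM, so they also differed widely from each other. Those higher in KO+vector at rest, besides Malrd1, were Alkal2, a ligand of the kinase ALK (-0.68, SE 0.325), Erich3 (-0.63, SE 0.236), Npy2r, a neuropeptide Y receptor (-0.86, SE 0.499), Mup3 (-0.48, SE 0.565) and the RNA gene Rprl2 (-0.55, SE 0.275). All had an adjusted p of 0.999. Erich3, at 7.07, 9.25 and 7.63 CPM with vector and at 4.02, 6.30 and 5.19 CPM with WT, did not overlap between groups.

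Marker genes of the labelled cell type were present in every library. Summed over 8 neuronal markers, KO+vector libraries held 2150 to 2181 CPM and KO+WT libraries 2208 to 2311 CPM, and 0 of the 8 were called (median 0.06). Stmn2, a neuronal microtubule regulator, was at 300.4, 314 and 314 CPM with vector and at 356, 342 and 348 CPM with WT (0.17, unadjusted p 0.0346). Markers of excitatory (8 genes, median 0.04) and inhibitory neurons (10 genes, median 0.14) gave 0 calls. The inhibitory median against the KO+vector mean was 0.26 and 0.28 in KO+WT replicates 1 and 2 and -0.31 in replicate 3. Slc17a6, the vesicular glutamate transporter VGLUT2, was at 31.9, 31.5 and 29.3 CPM with vector and at 23.8, 23.0 and 24.2 CPM with WT. Its groups did not overlap (-0.38, SE 0.127, unadjusted p 0.00716, adjusted p 0.999).

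Glial markers varied between the KO+WT libraries. All 8 astrocyte markers had a log2 fold change above 0, with a median of 0.38, and 0 were called in the main fit. Their sum was 755 to 879 CPM with vector and 817, 1112 and 958 CPM in KO+WT replicates 1, 2 and 3, and KO+WT replicate 2 was the highest of the 6 in 7 of the 8. Without that library the median was -0.03. Aqp4, the astrocyte water channel, was at 0.461, 2.25 and 2.54 CPM with vector and at 5.92, 22.1 and 3.22 CPM with WT. Its groups did not overlap (2.61, SE 0.727, unadjusted p 0.00204, adjusted p 0.999), and NT cultures were at 17.0 and 18.6 CPM. The edgeR fit with no low-count filter did call Aqp4 (adjusted p 1.40e-33). Gfap, the astrocyte filament protein, was at 38.9, 65.3 and 49.7 CPM with vector and at 38.6, 124 and 37.9 CPM with WT, with the difference resting on replicate 2.

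Of 9 oligodendrocyte-lineage markers 0 were called in the main fit and 7 were above 0, with a median of 0.83. Against the KO+vector mean their median was 0.66, 0.77 and -0.03 in KO+WT replicates 1, 2 and 3. The sum of the 9 hardly differed (114 to 134 CPM with vector, 108 to 141 CPM with WT). Mbp, the myelin basic protein gene, made up most of that sum (-0.10, SE 0.126). Olig2, a transcription factor of the lineage, was at 2.87, 1.90 and 1.82 CPM with vector and at 3.76, 7.39 and 1.30 CPM with WT. Fibroblast and vessel markers (8 of 10 tested) had a median of 0.57 and proliferation genes (8) a median of 0.51, both with 0 calls. The fibroblast and vessel median against the KO+vector mean was 0.45, 0.60 and -0.53 in KO+WT replicates 1, 2 and 3, and that of proliferation genes was 0.18, 0.43 and -0.08. Microglial markers were low, with 4 of 7 tested and a sum of at most 7.99 CPM. The part of these cells in the gene differences above was not tested.

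**Figure D5:**
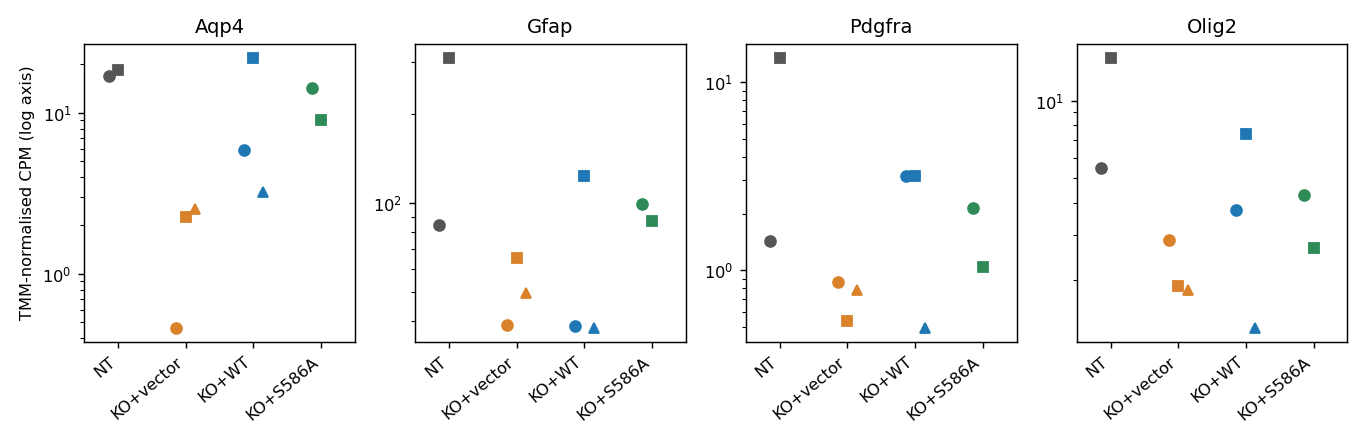
TMM-normalised CPM (log axes) of the astrocyte genes Aqp4 and Gfap and the oligodendrocyte-lineage genes Pdgfra and Olig2 in each depolarized library; symbols are replicates 1 (circle), 2 (square) and 3 (triangle). KO+WT replicate 2 is the highest KO+WT library for Aqp4, Gfap and Olig2. KO+WT replicate 3 is above the KO+vector libraries for Aqp4 and below them for Gfap, Pdgfra and Olig2, as is replicate 1 for Gfap.

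Stress lists gave 0 calls as well. The medians were 0.02 over 10 p53-response genes, 0.001 over 8 genes of the integrated stress response and -0.07 over the 9 of 12 interferon-response genes that were tested, with 0 at an unadjusted p under 0.05 in each. The integrated stress median against the KO+vector mean was -0.09, -0.21 and 0.22 in KO+WT replicates 1, 2 and 3. The interferon median was -0.01, 0.18 and -0.15 in the same order. Cdkn1a, the p53-induced cell cycle inhibitor, was at 91.0, 99.2 and 105 CPM with vector and at 120, 97.8 and 122 CPM with WT (0.20, SE 0.160). Sex-linked genes (5) had a median of -0.02. Against the KO+vector mean it was -0.32, -0.02 and 0.32 in KO+WT replicates 1, 2 and 3. Xist and the Y-linked Kdm5d were both present in each library (Xist at 691 to 837 CPM with vector and 578 to 750 CPM with WT). The labels nevertheless call the cortex of 1 embryo a replicate.

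Whether the addback difference depended on depolarization was tested by the interaction of construct and state. No gene was called (0 of 20940), with 768 (3.67%) at an unadjusted p under 0.05. With DESeq2 there was 1, the Zc3h11a gene described above. At rest 3 genes were called between KO+WT and KO+vector (0.0143%), Smarcc2 and Pgk1 among them. Of the 2315 genes besides Smarcc2 with an unadjusted p under 0.05 at rest, Pgk1 included, 1792 (77.4%) had the same sign under KCl, beside 59.3% of all genes tested. These comparisons share no library, and the same-numbered KO+vector cultures carry the same limit as above.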

How the data were processed

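RNA of the 20 libraries of 18-day cultures was depleted of ribosomal RNA before sequencing, per the labels' protocols. FastQC, cutadapt and kallisto are named in the submitters' processing notes. Each deposited table lists, per its header, an estimated count, a TPM and an effective length for every transcript. The estimated counts were deposited by the authors without scaling. TPM values deposited by the authors are the same counts scaled by effective length, and were used for transcript levels. Effective lengths served for length offsets. The genome build was not given in the sources used here. Of 142552 transcripts, 141429 (99.2%) matched GENCODE M21 on GRCm38, and the rest, up to 0.441% of a library's counts, were dropped.

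Estimated counts were summed per gene, rounded, and tested with edgeR 4.0.16 in R 4.3.3 (quasi-likelihood F test, two-sided, TMM, filterByExpr, Benjamini-Hochberg over all 20940 genes, threshold 0.05). The 20 libraries were fitted together in 8 groups (12 residual degrees of freedom, biological coefficient of variation 14.6%), since the labels state no test. Transcripts were tested the same way. The tests were checked on simulated data of 41147 genes (189 calls, 4.23% of them false). The pairing check correlated deviations from group means across 15135 genes: same-numbered KO+vector and KO+WT libraries gave r of 0.239, 0.25 and 0.404, other pairs -0.325 to 0.14. The numbers come from the titles. Deviations cancel out within a group, so the r of same-numbered and of other-numbered pairs are not independent of each other.

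Named genes were Smarcc2, Smarcc1, Pgk1, all called genes, the 8 of lowest p in each direction (no overlap, at least 1 CPM, no predicted gene), up to 3 of lowest p and some set members of each of 18 lists, and the 6 largest rises and falls of KO+vector against NT at rest. Bicral, Grin2b, Mbp and Olig2 were named after their values were seen. A gene that the rule selects is not reported here. Members and lists were chosen with earlier results of these data known. Alternatives were DESeq2 1.42.0, median-of-ratios size factors, other filters (none, or 1 CPM in 3 libraries), replicate blocks, the 6 libraries alone, length offsets, and leaving out each of the 6 libraries. P-values measure only the spread between these cultures.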

Additional observations from a re-analysis of the deposited data

How the results depend on the processing

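Smarcc2 (log2 fold change 3.74 to 4.25) and Pgk1 (-1.54 to -1.40) were called under all 14 alternatives. The number of called genes was 2 with TMM or median-of-ratios size factors, 6 with DESeq2, 127 with no low-count filter (73 higher, 54 lower), 17 with the replicate block in the 6 libraries, 2 with the replicate block in all 20, and 2 to 4 when 1 library was left out (4 without KO+vector replicate 2, 3 without KO+WT replicate 2). The interaction with state gave 1 call with DESeq2 and 116 with no filter, and transcripts gave 75 with DESeq2. The causes were not tested. Leaving out 1 library moved the share of opposite signs between 73.0 and 89.7%, the early-response median between -0.26 and 0.44, the astrocyte median between -0.03 and 0.68, the oligodendrocyte-lineage median between 0.46 and 1.09 and the glycolysis median between -0.01 and 0.19. Over all genes tested but Smarcc2, the share of opposite signs moved between 55.2 and 63.2%.

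Of 88 named genes, 67 kept their sign in each setting in which they were tested, and some genes of low level were not tested in all. Beyond left-out libraries, Eda2r was at -0.025 with length offsets, and with the replicate block in the 6 libraries Egr1 was at -0.011 and Actl6b at -0.00103. With 1 library left out the log2 fold changes ran as follows. Early and late genes ran from -0.35 to 0.78 for Fos, -0.16 to 0.46 for Fosb, -0.28 to 1.00 for Npas4, -0.30 to 0.62 for Arc, -0.24 to 0.36 for Egr1 and -0.19 to 0.48 for Bdnf. Metabolic and stress genes ran from -0.0089 to 0.39 for Gpi1, -0.036 to 0.30 for Gapdh, -0.072 to 0.19 for Ldha, -0.038 to 0.53 for Adm, -0.088 to 0.32 for Ndrg1 and -0.084 to 0.33 for Ddit3. Subunits ran from -0.068 to 0.019 for Smarcc1, -0.045 to 0.0086 for Smarca4 and -0.027 to 0.025 for Actl6b. Others ran from -0.68 to 0.15 for Ptprc, -0.39 to 0.25 for Cx3cr1, -0.11 to 0.29 for Uty, -0.42 to 0.66 for Gfap, 0.04 to 0.24 for Eda2r and -1.11 to 0.026 for Mup3. With no low-count filter Npas4 (adjusted p 0.00218) and Gfap (0.0178) were called, and the others listed in this paragraph were called in no setting. Of the other named genes, that fit also called Aqp4, Pdgfra, Rpl5, Mn1 and Syt10, among others. Depth limits the genes below 1 CPM, where the median standard error was 0.64.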
